A study of Mus musculus with 19 samples.

Results

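The 8 genes described here encode enzymes of cholesterol synthesis: Hmgcs1, Idi1, Fdps, Fdft1, Sqle, Lss, Cyp51 and Msmo1. They were looked up by gene symbol among array probe sets that carry 1 symbol, and 7 of the 8 were found, each through 1 probe set, among 22180 genes in all. The only probe set listing Idi1 carries 2 symbols, so no value is given for Idi1. Expression was measured on 19 arrays of thymocytes sorted from C57BL/6 mice, as log2 values. WT mice were set beside Rptor-/- mice, in which a CD2-driven Cre recombinase acts on a floxed Raptor gene; the labels do not say whether WT mice carried Cre, how old the mice were, or whether replicates are separate mice. The p-values therefore reflect the spread among arrays within groups, pooled over all 6 groups in 1 model. This spread may be technical, and it is not that of the compared groups alone. Rptor encodes Raptor, the subunit that defines the kinase complex mTORC1. There were 4 WT and 3 Rptor-/- arrays of immature single-positive (ISP) cells, sorted as CD8+ without CD4 or TCRβ, which are αβ-lineage precursors on the way to the double-positive stage. DN3a cells, double-negative precursors sorted as CD25hi without CD44, CD28 or either T-cell receptor, had 3 arrays per genotype. γδ T cells also had 3 arrays per genotype and were gated by absence of CD4, CD8, TCRβ, NK1.1 and Gr1, with no positive γδ marker in the stated gate.

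Cholesterol is built from acetyl-CoA through mevalonate, isoprenoid diphosphates, squalene and lanosterol. The genes of this pathway are classic targets of SREBP2, a transcription factor held in the endoplasmic reticulum by SCAP and INSIG proteins while sterols are plentiful and released by proteolysis when they are scarce. In several cell types mTORC1 activity is known to promote SREBP function, and dividing lymphocytes draw on the pathway for membrane. Hmgcs1 (chromosome 13) makes HMG-CoA, and Fdps (chromosome 3) makes farnesyl diphosphate, from which both sterols and prenyl groups derive. Fdft1 (chromosome 14), squalene synthase, commits farnesyl diphosphate to sterols. Sqle (chromosome 15) oxidises squalene and Lss (chromosome 10) closes the rings to lanosterol. Cyp51 (chromosome 5) and Msmo1 (chromosome 8) then remove methyl groups from lanosterol and its products.

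Promoter windows of 250 bases before the start were taken from RefSeq (GRCm38.p6), where 4 of the 7 measured genes had an entry. These 4 are shown because they had an entry. All 7 measured enzymes, with or without an entry, were lower in Rptor-/- ISP cells and in WT γδ against WT DN3a cells, by different amounts. Capitals mark TCACNCCAC (a form of the sterol regulatory element), CCAAT (the NF-Y box) and GGGCGG (the Sp1 box), each searched on both strands. The marked matches do not overlap one another, and other forms of the sterol regulatory element were not searched. The windows are chr13:119690101-119690350 (plus strand) for Hmgcs1, chr10:76531355-76531604 (plus strand) for Lss, chr5:4104698-4104947 (minus strand) for Cyp51 and chr8:64733579-64733828 (minus strand) for Msmo1, each printed 5′ to 3′ on the gene's strand.
Hmgcs1: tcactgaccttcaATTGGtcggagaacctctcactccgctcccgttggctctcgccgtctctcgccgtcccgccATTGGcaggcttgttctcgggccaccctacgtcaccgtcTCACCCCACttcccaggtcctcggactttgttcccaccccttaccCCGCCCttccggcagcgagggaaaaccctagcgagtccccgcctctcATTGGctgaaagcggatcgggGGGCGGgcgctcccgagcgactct
Lss: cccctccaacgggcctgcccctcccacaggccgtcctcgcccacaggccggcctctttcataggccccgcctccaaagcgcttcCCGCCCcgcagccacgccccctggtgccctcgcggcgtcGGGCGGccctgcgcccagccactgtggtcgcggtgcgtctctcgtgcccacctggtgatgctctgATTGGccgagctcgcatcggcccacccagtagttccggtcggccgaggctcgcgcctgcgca
Cyp51: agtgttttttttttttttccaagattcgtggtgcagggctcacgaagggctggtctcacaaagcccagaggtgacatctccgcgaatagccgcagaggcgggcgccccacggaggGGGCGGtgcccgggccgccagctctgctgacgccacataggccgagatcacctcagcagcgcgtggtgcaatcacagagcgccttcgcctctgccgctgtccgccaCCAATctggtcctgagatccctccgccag
Msmo1: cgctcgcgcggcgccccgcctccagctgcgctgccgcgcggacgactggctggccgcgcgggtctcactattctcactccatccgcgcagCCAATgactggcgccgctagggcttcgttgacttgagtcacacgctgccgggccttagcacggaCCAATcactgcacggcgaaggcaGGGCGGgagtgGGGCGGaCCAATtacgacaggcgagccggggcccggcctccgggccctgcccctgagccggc
The letters TCACNCCAC were found in the Hmgcs1 window, beginning at position -137 from the start as TCACCCCAC. Of 32851 mouse promoter windows 346 (1.05%) held them. These letters were not in the windows of Lss, Cyp51 and Msmo1. The NF-Y box was in all 4 windows, with 3 matches each in Hmgcs1 and Msmo1 and 1 each in Lss and Cyp51, against 33.8% of all windows. The Sp1 box was also in all 4, against 32.7%. The 4 windows were 62.8% to 73.6% GC, beside a median of 52.4% over all windows. The part of this base content in the matches was not tested. The E-box CACGTG, found in 6.02% of windows, was in none of the 4. A match describes letters in this window and does not show binding.

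The median log2 value of an ISP array lay between 3.8 and 3.88 (7 arrays) and that of a DN3a or γδ array between 6.03 and 6.13 (12 arrays). Levels in ISP cells were therefore set only against other ISP arrays. Rptor ranged from 6.06 to 6.34 on Rptor-/- and 6.34 to 6.49 on WT ISP arrays, with groups that touched, from 9.55 to 9.75 and 10.16 to 10.34 on DN3a arrays, and from 9.40 to 9.52 and 9.74 to 9.79 on γδ arrays. Its log2 differences were -0.24, -0.58 and -0.30 (limma adjusted p = 0.0384, 5.98e-04 and 0.0489); the ISP call was lost without any of 5 of the 7 arrays (all but Rptor-/- replicate 3 and WT replicate 3), with values down to -0.18, and the γδ call without any of the 6 (-0.33 to -0.27). Both calls were also lost with only the arrays of that population fitted (adjusted p = 0.128 and 0.114). Whether the probe set reaches outside the deleted part of the gene was not tested. Most defining markers followed the labels: Cd8a was 11.2 to 11.5 on WT ISP arrays, and in WT γδ against DN3a cells Il2rb (5.21) and Sox13 (2.78) were higher and Il2ra (-3.48) and Ptcra (-4.28) lower on the log2 scale; the γδ constant-region genes were not analysed here. Against the CD8-negative gate, Cd8b1 was higher in WT γδ (8.75 to 8.85) than in WT DN3a cells (7.05 to 7.87), by 1.47 (adjusted p = 2.80e-05). In ISP cells, sorted without CD4, Cd4 read 5.79 to 7.38 on WT arrays (SD 0.69, n = 4). On Rptor-/- ISP arrays it read 6.73 to 7.01, and both ranges lay above the array medians. The part of this in the enzyme values was not tested. Among the arrays, WT DN3a replicate 3 had all 7 enzymes above and WT ISP replicate 4 all 7 below their group means. For the genotype and WT comparisons that use these arrays, enzyme calls and medians are also given without the array concerned.

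Loss of Rptor in ISP cells went with lower expression of the entire set: all 7 measured enzymes were lower in Rptor-/- than in WT cells, at 37.3% to 70.4% of the WT level, and in none did the genotypes overlap. Of all genes tested 6.57% were called lower and 5.87% higher, and 8.95% were lower without overlap. The median log2 difference of the 7 was -1.29, beside -0.0039 over all genes. From these bulk arrays, fewer cells of a type and less RNA per cell cannot be told apart.

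Hmgcs1, at the entry to the mevalonate pathway, read 7.12, 6.89 and 6.6 log2 units on the Rptor-/- arrays and 8.49, 8.46, 8.29 and 7.93 on the WT arrays. The highest Rptor-/- array lay well below the lowest WT array. The difference was -1.42 (SE 0.16, limma adjusted p = 6.26e-06), the 15th lowest of 22180 genes. Fdps read 7.63, 7.57 and 7.31 against 8.97, 9.04, 9.02 and 8.53. The other WT arrays lay close together above WT replicate 4, which was still above every Rptor-/- array. Fdps differed by -1.39 (SE 0.11, adjusted p = 2.08e-07), leaving 38.3% of the WT level.

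Fdft1, the branch point to sterols, read 7.16, 7.43 and 7.25 against 7.92, 7.94, 7.86 and 7.79. Its WT arrays were the tightest of the set (SD 0.07, n = 4), and its difference was smaller, -0.59 (SE 0.08, adjusted p = 4.58e-05), or 66.2% of WT. Sqle, a rate-limiting oxygenase further down, read 6.6, 6.45 and 6.36 against 7.95, 8.03, 7.85 and 7.63. That is a difference of -1.39 (SE 0.11, adjusted p = 1.05e-07), the smallest p among the 7. Lss, which acts next, had the smallest difference of the 7: it read 5.12, 4.94 and 4.99 against 5.34, 5.85, 5.57 and 5.34. The groups were separate but close, with a difference of -0.51 (SE 0.13, adjusted p = 0.0152, 70.4% of WT). The Lss call was lost without Rptor-/- replicate 2 (-0.47, adjusted p = 0.0697), Rptor-/- replicate 3 (-0.49, 0.0597) or WT replicate 2 (-0.40, 0.0535), and when only ISP arrays were fitted (limma adjusted p = 0.0815).

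Both lanosterol-processing enzymes fell. Cyp51 read 5.97, 6.10 and 5.98 against 7.19, 7.24, 7.0 and 6.97, a difference of -1.09 (SE 0.13, adjusted p = 8.88e-06). Msmo1 read 5.05, 5.01 and 4.61 against 6.15, 6.18, 6.35 and 6.04, a difference of -1.29 (SE 0.13, adjusted p = 2.54e-06). In both genes the genotypes were far apart beside the spread within them, and 47.1% and 40.8% of the WT level remained. The amounts thus did not follow the order of steps: the 5 enzymes Hmgcs1, Fdps, Sqle, Cyp51 and Msmo1 ranked among the 39 lowest of all genes, whereas Fdft1 ranked 363 and Lss 556. Of the promoters printed above, the one with TCACNCCAC belongs to Hmgcs1. Msmo1 and Cyp51, without those letters, were also among the 39, and other forms of the sterol regulatory element were not searched. Without WT ISP replicate 4 all 7 calls held and the median was -1.34.

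**Figure D1:**
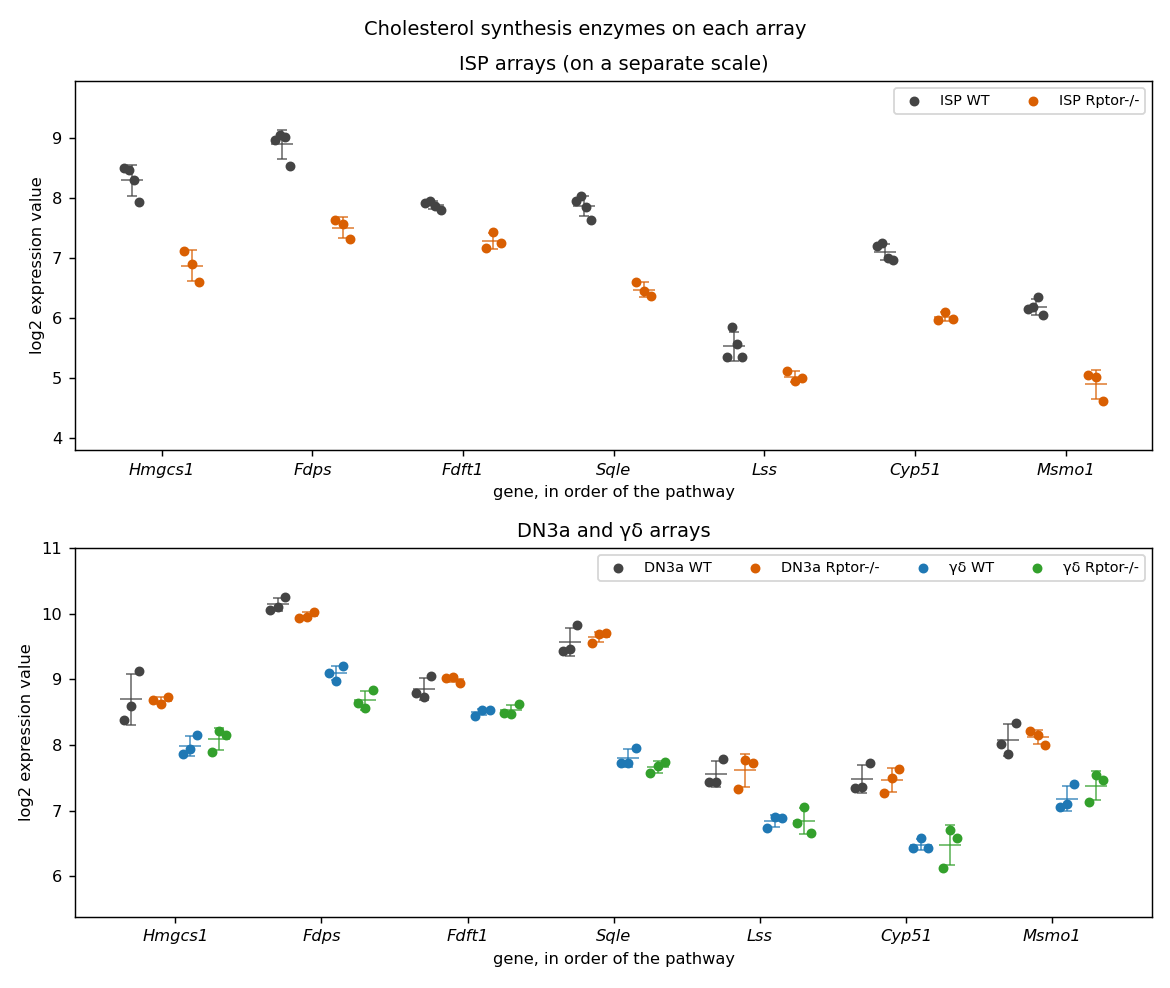
Log2 expression values of the 7 enzymes on each array (points), with group mean and SD (bars); genes run along the x axis in pathway order, and the ISP panel has its own scale and y axis. On ISP arrays every Rptor-/- point lies below every WT point of the same gene, and in the lower panel the WT γδ points lie below the WT DN3a points.

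Other genes of the pathway were taken from lists and counted in the same fit. Of 13 other sterol enzymes 10 were measured, and 5 were lower and none higher in Rptor-/- ISP cells (median -0.36). Hsd17b7, a sterol ketone reductase, differed by -0.93 (SE 0.17, adjusted p = 6.32e-04) and Nsdhl, a sterol dehydrogenase, by -0.77 (SE 0.09, 1.09e-05). Sc5d, a sterol desaturase, differed by -0.67, Ebp, a sterol isomerase, by -0.66, and Mvd, which makes isopentenyl diphosphate, by -0.39 (adjusted p = 1.56e-05, 3.59e-04 and 0.00802). Not passing the test were Mvk (-0.31), Pmvk (-0.32), Dhcr7 (-0.17), Tm7sf2 (-0.08) and Lbr (0.20). With only ISP arrays fitted the calls of Ebp (adjusted p = 0.053), Hsd17b7 (0.058) and Mvd (0.134) were lost, and that of Mvd also without Rptor-/- replicate 2 (-0.32, 0.0654). Together, 12 of 17 measured sterol enzymes were lower.

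Among 7 genes of SREBP control, 3 were lower in Rptor-/- ISP cells. Insig1, both a brake on SREBP and a known SREBP target, read 7.43, 7.12 and 7.17 against 8.44, 8.30, 8.19 and 8.26 on WT arrays. It differed by -1.06 (SE 0.09, adjusted p = 3.32e-07), without overlap. Srebf2, which encodes SREBP2, differed by -0.44 (SE 0.08, adjusted p = 6.77e-04) and Scap by -0.31 (SE 0.08, 0.0122); the Scap call was lost without Rptor-/- replicate 1 (-0.28, 0.0562) and with only ISP arrays fitted (0.0742). Srebf1, Insig2, Mbtps1 and Mbtps2 lay between -0.14 and 0.09 and did not pass. Of 6 uptake and transport genes measured, the sterol carrier Stard4 (-0.82, SE 0.11, adjusted p = 2.40e-05) and the lipoprotein receptor Scarb1 (-0.67, SE 0.10, 7.49e-05) were lower. Lipa, lysosomal acid lipase, was higher (0.42, SE 0.08, adjusted p = 0.00166).

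Of 7 efflux and LXR genes, 2 were higher and none lower in Rptor-/- ISP cells. Mylip, a ubiquitin ligase induced by LXR, was higher by 0.65 (SE 0.10, adjusted p = 1.51e-04), and the exporter Abcg1 by 0.25 (SE 0.08, 0.0358). The Abcg1 call was lost without Rptor-/- replicate 1 or 2 or WT replicate 1 or 3 (0.20 to 0.25, adjusted p = 0.0699 to 0.187), with only ISP arrays fitted (0.118) and with arrays centred on their medians (0.075). Of 6 genes of the non-sterol branches (prenyl transfer, dolichol and ubiquinone) none passed the limma threshold, and 1 was under 0.05 unadjusted. Beside these counts, 4 of 15 measured cell-division genes were lower, Mcm2, Mcm3, Mcm4 and Mcm5 by -0.36 to -0.54 (list median -0.18). The list mean was 9.32 to 9.57 on Rptor-/- and 9.48 to 9.67 on WT arrays. Top2a (10.57 to 10.79 on Rptor-/- and 10.13 to 10.42 on WT arrays) and Mki67 (10.45 to 10.59 and 10.19 to 10.42) were higher without overlap but not called. Without overlap 6 of the 15 were lower, as were 8.95% of all genes. The part of the cell-division genes in the result was not tested. Of 29 markers of B, dendritic, myeloid, erythroid, natural killer and stromal cells none was called, with 5 under 0.05 unadjusted (limma). Of 3 genes listed for mature αβ T cells (Ccr7, S1pr1 and Klf2) Klf2 was lower (-1.26, adjusted p = 7.92e-04). The list means were 4.79 to 5.03 on Rptor-/- and 5.07 to 5.50 on WT arrays.

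Markers of developmental stage also moved with genotype in ISP cells. Of 5 DN3a markers 4 were higher in Rptor-/- ISP cells: Dtx1, a Notch target (1.81), Notch3 (1.36), Ptcra, the pre-TCR alpha chain (0.63), and Il2ra, which encodes CD25 (0.48), with adjusted p from 1.07e-09 to 0.0303. The list means were 7.82 to 7.98 on Rptor-/- and 6.92 to 7.04 on WT arrays. Of 4 ISP markers 1 was higher, Ptcra, which is on both lists, and Cd8a did not pass (0.04). Of 4 T-lineage markers 2 were higher, Bcl11b (0.57) and Cd3e (0.22), with list means of 10.77 to 10.82 against 10.49 to 10.61. Of 4 γδ markers Id3 was lower (-2.29, adjusted p = 1.07e-09), with list means of 6.13 to 6.25 against 6.49 to 6.99. The list median was 0.09: Sox13, Il2rb and Cd5 had slightly higher means in Rptor-/- cells and were not called. The part of these shifts in the enzyme differences was not tested.

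In DN3a cells no enzyme was called between genotypes, and none had an unadjusted p under 0.05, where 0.983% of all genes were called in either direction. The 7 log2 differences ran from -0.17 to 0.14, with a median of 0.05. Hmgcs1 read 8.68, 8.62 and 8.73 on Rptor-/- and 8.38, 8.59 and 9.13 on WT arrays, so the Rptor-/- arrays lay inside the WT range; the difference was -0.02 (95% confidence interval -0.38 to 0.34). Sqle read 9.56, 9.69 and 9.70 against 9.43, 9.46 and 9.82, again inside it, at 0.08 (-0.16 to 0.32). Fdps read 9.93, 9.95 and 10.03 against 10.06, 10.10 and 10.26. It was the only member whose groups did not overlap, as in 17.1% of all genes, at -0.17 (-0.42 to 0.08). Fdft1 read 9.02, 9.04 and 8.95 against 8.80, 8.73 and 9.05, at 0.14 (-0.04 to 0.33).

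For the last 3 steps of the set the genotypes also overlapped in DN3a cells. Lss read 7.33, 7.78 and 7.73 against 7.44, 7.44 and 7.79 (0.06, interval -0.24 to 0.36). Cyp51 read 7.27, 7.50 and 7.64 against 7.35, 7.36 and 7.73 (-0.01, -0.30 to 0.27). Msmo1 read 8.22, 8.15 and 8.0 against 8.02, 7.87 and 8.34 (0.05, -0.25 to 0.34). In each the WT spread was set by replicate 3, the highest WT array for all 7 genes; without it no enzyme was called and the median was 0.18. Of the 10 other sterol enzymes 1 was called, Dhcr7, a late sterol reductase (0.47, SE 0.09, adjusted p = 0.00705), a call lost without WT replicate 2 (0.44, 0.0572). Lipa was higher (0.39, adjusted p = 0.0372), a call lost without Rptor-/- replicate 1 or 2 or WT replicate 2 or 3 (0.34 to 0.40, adjusted p = 0.106 to 0.204) and with only DN3a arrays fitted (0.0937). None of the SREBP control genes was called, with 0 under 0.05 unadjusted (limma). Of 29 markers of other cell types 2 were called, the myeloid marker Lyz2 (1.04) and the epithelial marker Epcam (0.67), both higher in Rptor-/- DN3a cells. Dtx1 (1.38) and Ptcra (0.68), 2 of 5 DN3a markers, were higher as well, with list means of 10.82 to 10.94 on Rptor-/- and 10.29 to 10.34 on WT arrays. Of 4 T-lineage markers Cd3d was higher (0.43), and of 4 γδ markers Sox13 (0.51). The part of these markers in the enzyme values was not tested.

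In γδ T cells no enzyme was called between genotypes either, where 3.05% of all genes were called, and the median was -0.003. Fdps came nearest: it read 8.64, 8.56 and 8.84 on Rptor-/- and 9.10, 8.98 and 9.20 on WT arrays. The groups did not overlap, as in 21.0% of all genes. The difference was -0.41 (interval -0.67 to -0.16, limma adjusted p = 0.0683), or 75.0% of WT, and 1 of 7 had an unadjusted p under 0.05. The call changed with the settings, from an adjusted p of 0.0122 with quantile normalization to 0.249 with an array left out, while the difference stayed between -0.50 and -0.35. Sqle read 7.57, 7.68 and 7.75 against 7.72, 7.73 and 7.96 (-0.14, -0.38 to 0.10).

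The other enzymes overlapped between genotypes in γδ T cells. Hmgcs1 read 7.90, 8.21 and 8.16 against 7.86, 7.94 and 8.15 (0.11, -0.25 to 0.47). Msmo1 read 7.13, 7.54 and 7.47 against 7.05, 7.10 and 7.40, the highest value of the 7 (0.20, -0.10 to 0.49). Cyp51 read 6.13, 6.71 and 6.58 against 6.44, 6.59 and 6.43 (-0.01, -0.30 to 0.27). In Cyp51 and Msmo1 the lowest Rptor-/- array was replicate 1. Fdft1 read 8.49, 8.48 and 8.62 against 8.45, 8.54 and 8.53 (0.02, -0.16 to 0.21), and Lss 6.81, 7.06 and 6.66 against 6.74, 6.91 and 6.89 (-0.003, -0.30 to 0.30). None of the 10 other sterol enzymes was called, with 2 under 0.05 unadjusted (limma). Of 7 SREBP control genes Insig1 was lower (-0.37, adjusted p = 0.0428). Its call was lost when any of the 6 γδ arrays was left out (-0.41 to -0.32, adjusted p = 0.0571 to 0.155). It was also lost when only γδ arrays were fitted (0.0768) and with arrays centred on their medians (0.0765). The median of the SREBP control list was 0.17. Scap, Insig2 and Mbtps1 were higher without overlap but not called, where 21.0% of all genes did not overlap in either direction. In the same comparison 13 of 15 cell-division genes were lower, with a list median of -0.70 and list means of 9.24 to 9.53 on Rptor-/- and 9.89 to 10.1 on WT arrays. Of 4 ISP markers Cd8b1 (-1.72) and Cd8a (-0.53) were lower in Rptor-/- γδ T cells, with list means of 6.24 to 6.45 against 6.83 to 7.01, of 5 DN3a markers Dtx1 was higher (0.57), and of 4 γδ markers Il2rb (0.52). The part of these shifts in the enzyme values was not tested.

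The 3 genotype comparisons share no arrays, and differences between them were tested as interactions. Between γδ and DN3a cells no enzyme's interaction passed, with 0 under 0.05 unadjusted (limma; 0.6% of all genes called), and the values ran from -0.24 to 0.15. The intervals were wide: that of Hmgcs1 ran from -0.38 to 0.64. Between ISP and DN3a cells 6 of 7 differed, all lower in ISP, where 4.12% of all genes did. The interaction was -1.48 for Sqle (SE 0.16, adjusted p = 3.27e-05), -1.40 for Hmgcs1 (0.23, 0.00119) and -0.74 for Fdft1 (0.12, 9.69e-04). Lss did not pass (-0.57, adjusted p = 0.0937), but did without DN3a Rptor-/- replicate 1 (-0.71, 0.0338). Between ISP and γδ cells the same 6 differed, where 3.63% of all genes were lower, from -0.62 for Fdft1 to -1.53 for Hmgcs1 (SE 0.12 and 0.23, adjusted p = 0.00396 and 6.04e-04), and Lss was at -0.50 (0.155). Both ISP interactions use the same ISP arrays and the same ISP genotype difference, so they are not independent. Because ISP arrays stand on another scale, a log2 step may not mean the same on ISP and other arrays.

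**Figure D2:**
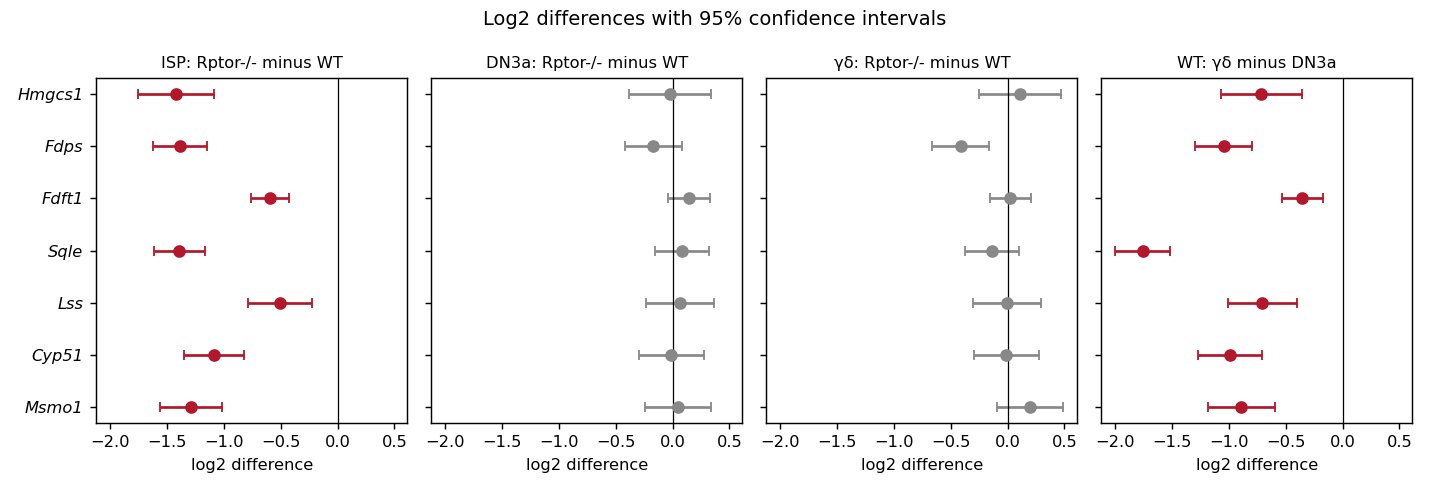
Log2 differences of the 7 enzymes (points) with 95% confidence intervals (lines) in the 4 comparisons; red marks a limma adjusted p under 0.05 and grey all others. All 7 are red and below 0 in ISP cells and between WT γδ and DN3a cells, and all 7 are grey for genotype in DN3a and γδ T cells.

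Between the WT populations, γδ T cells expressed all 7 enzymes at a lower level than DN3a cells, at 29.5% to 78.2% of the DN3a level. Of all genes 12.3% were called lower and 19.6% were lower without overlap. The groups overlapped in none of the 7, the median was -0.89 beside -0.0041 over all genes, and the calls held under every alternative run. This comparison uses the same WT arrays as the DN3a and γδ genotype comparisons above.

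Sqle had the largest difference of the 7: the WT γδ arrays read 7.72, 7.73 and 7.96 and the WT DN3a arrays 9.43, 9.46 and 9.82. The difference was -1.76 (SE 0.11, adjusted p = 2.81e-10), the 96th lowest of all genes. Fdps read 9.10, 8.98 and 9.20 against 10.06, 10.10 and 10.26, a difference of -1.05 (SE 0.12, adjusted p = 1.05e-06). Cyp51 read 6.44, 6.59 and 6.43 against 7.35, 7.36 and 7.73, a difference of -0.99 (SE 0.14, adjusted p = 1.03e-05), or 50.3% of the DN3a level. In each of these 3 genes the gap between populations exceeded the spread within them.

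Msmo1 differed by -0.89 (SE 0.14, adjusted p = 5.24e-05), Hmgcs1 by -0.72 (SE 0.17, 0.00334) and Lss by -0.71 (SE 0.14, 7.88e-04). Fdft1 had the smallest difference of the 7, -0.35 (SE 0.09, adjusted p = 0.00442), with arrays at 8.45, 8.54 and 8.53 against 8.80, 8.73 and 9.05. For Hmgcs1 the separation was narrow, since the highest γδ array (8.15) lay near the lowest DN3a array (8.38). Without WT DN3a replicate 3, the highest array for every enzyme, all 7 calls held and the median was -0.76.

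The remaining sterol enzymes were mixed between the WT populations: of 10, 4 were lower in γδ T cells (Hsd17b7 -0.91, Nsdhl -0.76, Dhcr7 -0.69, Tm7sf2 -0.47) and Ebp was higher (0.42, SE 0.12, adjusted p = 0.0118). Together, 11 of 17 were lower. Of the SREBP control genes 4 of 7 were lower: Insig1 (-0.63), Srebf2 (-0.52) and the SREBP proteases Mbtps1 (-0.61) and Mbtps2 (-0.37), with adjusted p from 5.89e-06 to 0.00498. Scarb1 (-1.10, SE 0.10, adjusted p = 5.91e-08) and Stard4 (-1.05, SE 0.11, 4.98e-07) were lower, as was Npc1 (-0.33), whereas Lipa (1.77, SE 0.09, 6.14e-12) and Npc2 (0.29) were higher. Among efflux and LXR genes Mylip (0.83) and the exporter Abca1 (0.81) were higher and Apoe (-0.57) and Ch25h (-0.29) lower. In the non-sterol branches the farnesyltransferase subunit Fntb was higher (0.31). Each of 3 calls was lost without any of 4 of the 6 WT arrays. These were DN3a replicate 1 or 2 and γδ replicate 1 or 2 for Npc2 (0.23 to 0.31) and Fntb (0.25 to 0.29), and DN3a replicate 1 or 2 and γδ replicate 1 or 3 for Ch25h (-0.31 to -0.22). With all probe sets of a gene averaged those of Npc1 (-0.11, adjusted p = 0.36) and Ch25h (-0.12, 0.505) were lost.

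Markers moved between the WT populations too. Of 15 cell-division genes 5 were lower in γδ T cells (Mcm2, Mcm3, Mcm4, Mcm6 and Mcm7) and Ccnb2 was higher, with list means of 9.89 to 10.1 on WT γδ and 9.99 to 10.2 on WT DN3a arrays. Of 4 natural killer markers 3 were higher (list mean 6.33 to 6.46 against 5.36 to 5.45). Ccr7, S1pr1 and Klf2, the 3 genes measured from the list for mature αβ T cells, were higher too (9.19 to 9.44 against 6.20 to 6.45). The αβ receptor gene Trac was not analysed here, so the presence of αβ T cells was not tested. Over all 29 markers of other cell types 4 were higher and 4 lower in γδ T cells. Those lower were the myeloid marker Lyz2 (-0.89), the stromal markers Epcam (-0.92) and Psmb11 (-0.29) and the B-cell marker Cd79b (-0.45), and the B-cell marker Blnk was higher (0.55). List means on WT γδ and WT DN3a arrays were 5.78 to 5.84 and 5.89 to 5.93 (myeloid), 6.28 to 6.39 and 6.50 to 6.58 (stroma) and 5.83 to 5.93 and 5.68 to 5.81 (B cells). Of 4 T-lineage markers Cd3g (-0.39), Cd3e (-0.24) and Bcl11b (-0.22) were lower (list mean 12.18 to 12.20 against 12.37 to 12.40). Their part in the enzyme differences was not tested.

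**Figure D3:**
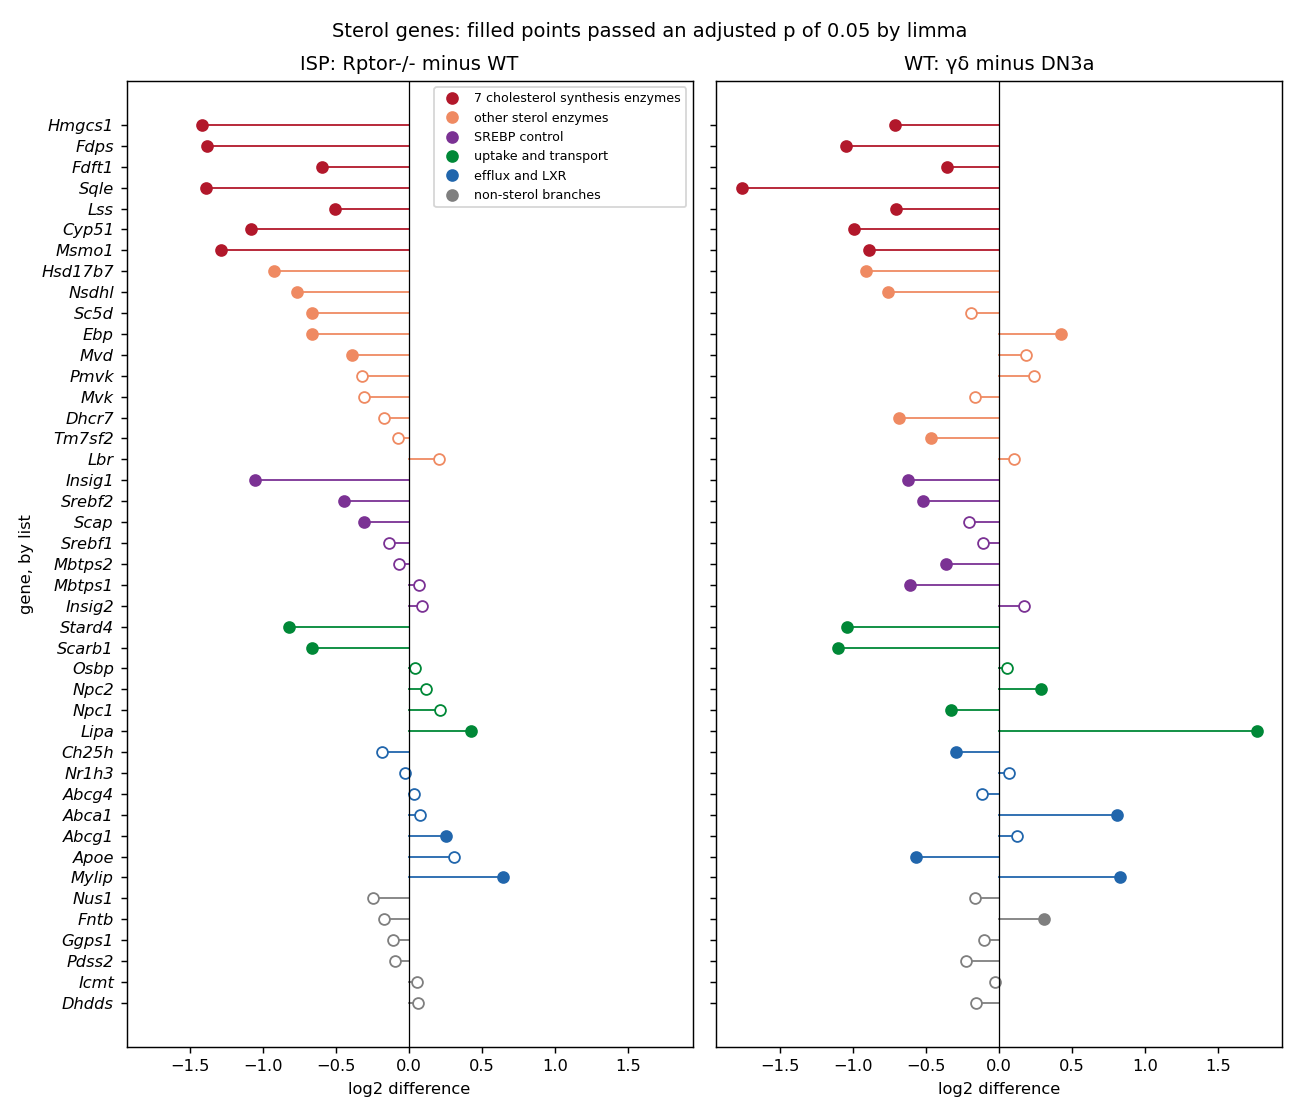
Log2 differences of the 7 enzymes and the other measured sterol genes, by list, in ISP cells (left, Rptor-/- minus WT) and between WT populations (right, γδ minus DN3a); filled points passed a limma adjusted p of 0.05. The 7 enzymes lie below 0 in both panels, and the non-sterol branch genes lie between -0.25 and 0.31.

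Within groups the enzymes varied together. Each array's deviation from its group mean was positively correlated for 21 of 21 gene pairs over 19 arrays, with a median r of 0.55, from 0.21 (Fdft1 with Lss) to 0.93 (Hmgcs1 with Sqle); the points share arrays and normalization, and this is a description. On 6 arrays all 7 enzymes fell on the same side of their group mean. WT DN3a replicate 3 was higher by 0.249 on average, and the lowest was WT ISP replicate 4 at -0.215. The other 4 were ISP Rptor-/- replicate 3 (-0.134), WT DN3a replicates 1 and 2 (-0.129 and -0.12) and γδ Rptor-/- replicate 1 (-0.143). The corresponding median deviation over all genes stayed between -0.014 and 0.011, a value that normalization and centring on group means keep small. Deviations cancel within a group, so a high WT DN3a replicate 3 sets the mean of replicates 1 and 2 low. These arrays are not separate observations, and no other set of genes was counted in this way.

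**Figure D4:**
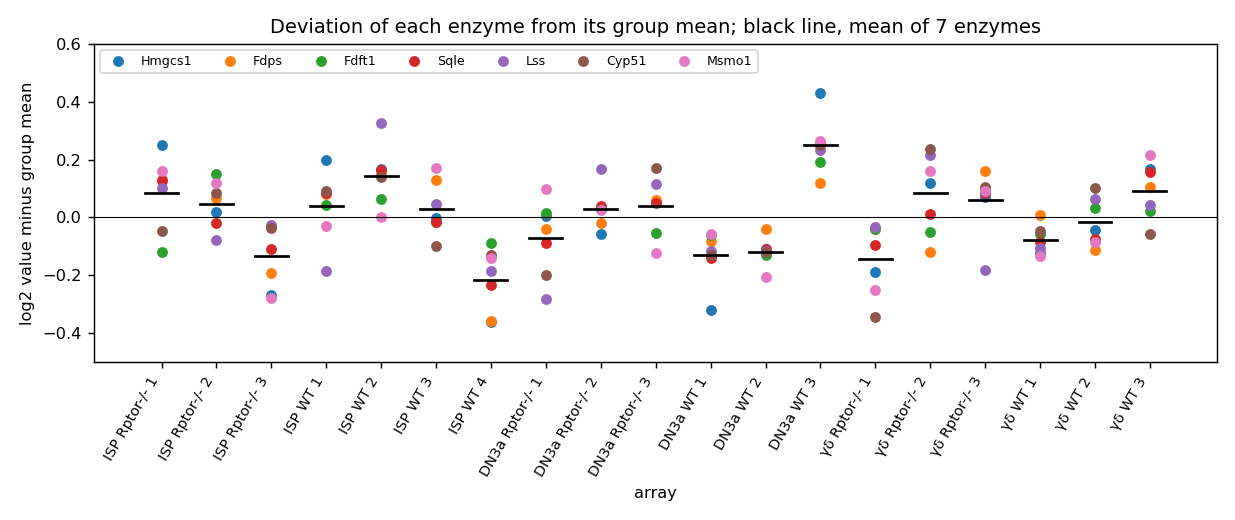
Deviation of each enzyme (coloured points) from its group mean in log2 units on each of the 19 arrays, with the mean of the 7 (black lines). All 7 points lie above 0 on WT DN3a replicate 3 and below 0 on WT ISP replicate 4.

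Likeness to the mean of the 7 enzymes was measured as the smaller of the Pearson correlations over the 7 ISP and the 12 other arrays; these points share groups and arrays. The 6 genes most alike were Dkc1 (0.983), Rcc2 (0.973), Nolc1 (0.973), Gnl3 (0.966), Fads2 (0.966) and Scarb1 (0.964). Dkc1, Nolc1 and Gnl3 encode nucleolar proteins, Rcc2 a regulator of chromosome condensation and Fads2 a fatty acid desaturase. Since these genes were picked for their likeness over these same arrays, differences in the direction of the enzymes follow from the choice and are given without a test. For Fads2 the log2 differences were -1.70 in ISP cells, 0.10 in DN3a cells and -0.70 in γδ T cells between genotypes, and -2.61 between WT γδ and DN3a cells. Among the enzymes themselves the value ran from 0.889 for Lss to 0.993 for Sqle. There the mean includes the enzyme itself, so these values cannot be set against those of the other genes.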

How the data were processed

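The authors deposited log2 expression values per probe set, made by RMA in Partek 6.6 per the submitters' processing notes; the set of arrays normalized jointly was not stated in the labels. Per the labels, 12 ng of RNA was amplified per array. No filter was applied. Of 41345 probe sets, 23521 had 1 symbol, 1814 had several and 16010 had none here; symbols were updated through Entrez IDs for 23328. For 1082 genes with several probe sets the one with the highest mean was kept, leaving 22180 genes. Groups came from the sample titles. The test was limma 3.58.1 (lmFit and eBayes, R 4.3.3) in 1 model of 6 group means over 19 arrays, with Benjamini-Hochberg adjustment over all genes and a threshold of 0.05; the code was tested on simulated data. Every adjusted p is limma's. The enzymes and the gene and marker lists were chosen with earlier results of these data known. Named genes were the enzymes, list genes past the threshold, Rptor, markers and the 6 genes most alike; single markers were named after their values were seen. Genes of the lists without a probe set of 1 symbol were not analysed here. Alternatives were fitting only the populations compared, median centring, quantile normalization, a signal filter, averaged probe sets, trended robust eBayes, a replicate block and leaving out each array. The number of arrays limits the precision. Figures used matplotlib 3.10.9.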

Additional observations from a re-analysis of the deposited data

Results flagged for a closer look

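In the WT ISP group of 4 arrays, 3 genes had an array apart from the rest: Fdps was lowest on replicate 4 (gap over range 0.852), Scarb1 highest on replicate 2 (0.893) and Rptor lowest on replicate 3 (0.863). They are 3 of 21 genes tested in this way, and chance sets apart about 1 in 20.

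The genotype difference in ISP cells was lower than that in DN3a cells for 6 enzymes by a limma interaction test: Hmgcs1 by -1.40, Fdps by -1.21, Fdft1 by -0.74, Sqle by -1.48, Cyp51 by -1.08 and Msmo1 by -1.34 (adjusted p from 3.27e-05 to 0.00149). Against γδ T cells the same test gave -1.53 for Hmgcs1, -0.97 for Fdps, -0.62 for Fdft1, -1.25 for Sqle, -1.07 for Cyp51 and -1.49 for Msmo1 (adjusted p from 1.15e-04 to 0.00396). Both sets of interactions use the same ISP arrays and are not independent. ISP arrays stand on another scale, and its part in these differences was not tested.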

How the results depend on the processing

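The 336 counts and medians recomputed under the alternatives include counts of enzymes called higher, which were 0 in every main comparison. Such counts say little of the called results. Of the 336, 329 stayed close to the main result, which allowed small changes of a count or median. Within that allowance, the count of enzymes called lower in ISP cells ran from 6 to 7 with an array left out. No enzyme called in the main comparisons reversed. With quantile normalization, the filter on mean signal, trended robust eBayes or the replicate block, 1 enzyme (Fdps) was called lower in γδ T cells in place of 0; the cause was not tested. Quantile normalization moved the median ISP minus DN3a interaction to -0.97. Leaving out 1 array at a time, the ISP median ran from -1.37 to -1.15 and the median ISP minus γδ interaction from -1.25 to -1.02. Same-numbered arrays did not deviate together in every pair (r from -0.104 to 0.242), so pairing was not established; with the replicate block, which leaves out WT ISP replicate 4, the ISP count stayed at 7 and the median was -1.34, and 691 in place of 677 genes were called in γδ T cells.

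Uncalled enzyme values near 0 changed sign. In γδ T cells Cyp51 was 0.0284 with median centring and 0.0062 with quantile normalization, Fdft1 -0.0374 with quantile normalization and Lss 0.0381 with centring; the Cyp51 γδ minus DN3a interaction was 0.0454 and 0.0543. With an array left out, the DN3a values ran from -0.0979 to 0.1159 (Cyp51), -0.1826 to 0.195 (Hmgcs1), -0.0207 to 0.2033 (Lss) and -0.0563 to 0.1761 (Msmo1). The γδ values ran from -0.1304 to 0.1599 (Cyp51), -0.0184 to 0.0483 (Fdft1) and -0.112 to 0.0869 (Lss). The γδ minus DN3a interactions ran from -0.1287 to 0.1714 (Cyp51), -0.0871 to 0.2905 (Hmgcs1) and -0.2063 to 0.025 (Lss).

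Over all genes, fitting only the populations compared called 1313 genes in place of 2759 in ISP cells, 144 in place of 218 in DN3a cells and 345 in place of 677 in γδ T cells. Median centring split the γδ calls into 540 higher and 181 lower in place of 393 and 284.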
